A study of Mus musculus with 8 samples.

Results

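CTCF regions were described at 6 ataxin genes, Atxn1, Atxn1l, Atxn2, Atxn3, Atxn7 and Atxn10, out of 21887 protein-coding genes of the mouse. The genes were taken by name, and every region whose summit lay in the gene span or within 20 kb of it was listed, which gave 29 of 33815 control regions and 38 of 36186 regions from NMDA-stimulated cells. Atxn1 was selected on its NMDA-only regions in these lists, so its counts of such regions describe the choice and are given with no test. The data are CTCF ChIP-seq of wild-type cortical neurons from Swiss-Webster mouse embryos (embryonic day 16), dissociated and used on day 13 in culture. Stimulated cultures had 50 µM NMDA, an agonist of one class of glutamate receptors, for 10 minutes and then 50 minutes without it, and control cultures had no treatment. The growth protocol common to every sample also describes etoposide, a topoisomerase inhibitor, but no sample carries it as its treatment. The series has 8 samples in 4 groups of 2 replicates (ChIP and input of each condition), and the authors gave 1 region list per condition, built over its 2 ChIP replicates.

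Ataxins are named for inherited ataxias, diseases of cerebellar and brainstem neurons, and are mostly unrelated in sequence. In several of them the disease follows the lengthening of a glutamine-coding CAG repeat. The protein CTCF recognises DNA through a row of zinc fingers. Together with cohesin it holds the anchors of chromatin loops, and it also sits at many promoters. Ataxin-1 and its paralogue, the product of Atxn1l, are nuclear proteins that stabilise the transcriptional repressor Capicua. Ataxin-2 binds RNA, ataxin-3 is a deubiquitinating enzyme, ataxin-7 joins the deubiquitinase module to the SAGA coactivator complex, and ataxin-10 is a cytoplasmic protein needed for the survival of cultured neurons.

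The promoter of Atxn3 is shown as that of the strongest region at a member's end, and Atxn1l beside it, because theirs were the only promoter windows of the 5 matched members that held the summit of a CTCF region, and they did so in both lists. Atxn2, Atxn7 and Atxn10 also matched the RefSeq promoter table (build GRCm38.p6), which gives 250 bases before and 50 after a start site, and Atxn1 did not. Each sequence runs 5′ to 3′ on the strand of its gene. Capitals mark the stretch from the control summit to the NMDA summit, which was 35 bases in Atxn3 (positions 86 to 120, counted from 1 at the 5′ end) and 43 bases in Atxn1l (positions 72 to 114).
Atxn3, chr12:101958194-101958493, minus strand: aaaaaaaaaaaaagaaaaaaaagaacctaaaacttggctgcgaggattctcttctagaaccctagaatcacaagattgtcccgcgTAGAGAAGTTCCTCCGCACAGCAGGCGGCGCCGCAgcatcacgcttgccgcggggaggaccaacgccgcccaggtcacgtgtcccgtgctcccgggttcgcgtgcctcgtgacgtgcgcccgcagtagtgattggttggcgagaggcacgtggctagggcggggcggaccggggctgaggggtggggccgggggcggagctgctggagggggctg
Atxn1l, chr8:109737731-109738030, minus strand: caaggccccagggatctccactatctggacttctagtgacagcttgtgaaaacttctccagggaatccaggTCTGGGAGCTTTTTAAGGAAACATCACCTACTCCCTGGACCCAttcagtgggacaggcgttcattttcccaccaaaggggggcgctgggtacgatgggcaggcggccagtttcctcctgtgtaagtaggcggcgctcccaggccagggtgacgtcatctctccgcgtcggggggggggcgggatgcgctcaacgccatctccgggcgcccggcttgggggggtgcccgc
Both windows were 62.3% G and C. The 12-letter CTCF consensus searched for consists of CCA, AG and GGC with 2 free letters between neighbours, and it was looked for on both strands. It was found in neither window, nor in the other 4 windows of the members, and in 2.43% of 32817 promoter windows of the same length. After the sequences had been read, 7 shorter or looser forms were tried as well, so that 8 forms were searched in all and a match of one of them carries little weight. The form without the first letter matched 1 of the 6 member windows, that of Atxn3, and 6.41% of all windows (21% of the 1556 windows with a summit of both lists). There it read CAGCAGGCGGC at positions 104 to 114, inside the capitals, with its centre 11 bp from the control summit and 23 bp from the NMDA summit. The form with the third letter left free matched 1 member window, that of Atxn1l, and 8.61% of all windows (38.4% of those with a summit of both lists). The other 5 forms, of 5 to 7 positions, matched 3 to 6 of the 6 member windows and 10.6% to 66.0% of all windows. Such a match is a description of letters, not of a bound site, and a window without one says nothing about CTCF there.

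All 6 genes had at least 1 region found in both conditions. A region that touched any region of the opposite list, by 1 bp or more, was called shared, and the remainder NMDA-only or control-only. The members had 27 shared regions in each list, each paired with exactly 1 region of the other list. They also had 11 NMDA-only regions, which was 28.9% of their 38 NMDA regions, and 15.5% of the whole NMDA list was NMDA-only. The order of these shares turned when only regions with a score of 830 or more were kept: 3 of 23 NMDA regions of the members (13%) were then NMDA-only, against 18% of the list. The NMDA-only regions lay at Atxn1 (6), Atxn2 (3) and Atxn10 (2), and the windows of Atxn1l, Atxn3 and Atxn7 held none. Control-only regions numbered 2, 1 at Atxn1 and 1 at Atxn2, or 6.90% of the members' control regions, where the whole control list had 9.22%. That order also turned with some settings, as when the NMDA list was limited to the size of the control list (6 of 29, or 20.7%, against 11.15%). Of all protein-coding genes with the same flanks, 71.8% had a shared region, 26.7% an NMDA-only and 16.3% a control-only region, and of the members 6, 3 and 2 of 6 had them. The choice of Atxn1 used these classes, and nothing is read from its share. With 1 list per condition, the differences given here have no replicate error beside them. A lower signal can come from fewer cells with CTCF bound or from less binding per cell, which cannot be told apart in bulk chromatin.

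Atxn1, on chromosome 13 from 45549755 to 45964991 (mm10), is the longest member, with a span of 415 kb. It carried 9 regions inside the gene in the control list and 15 in the NMDA list. Its ends are called the low and the high end by coordinate. The regions were crowded into the low part of the gene. From 258 to 414 kb from the low end, a stretch of 156 kb or 37.5% of the span, no summit of either list was found, and the regions resumed just before the high end. In the NMDA list the window held 3.95 regions per 100 kb, against 2.86 in the control list.

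**Figure D1:**
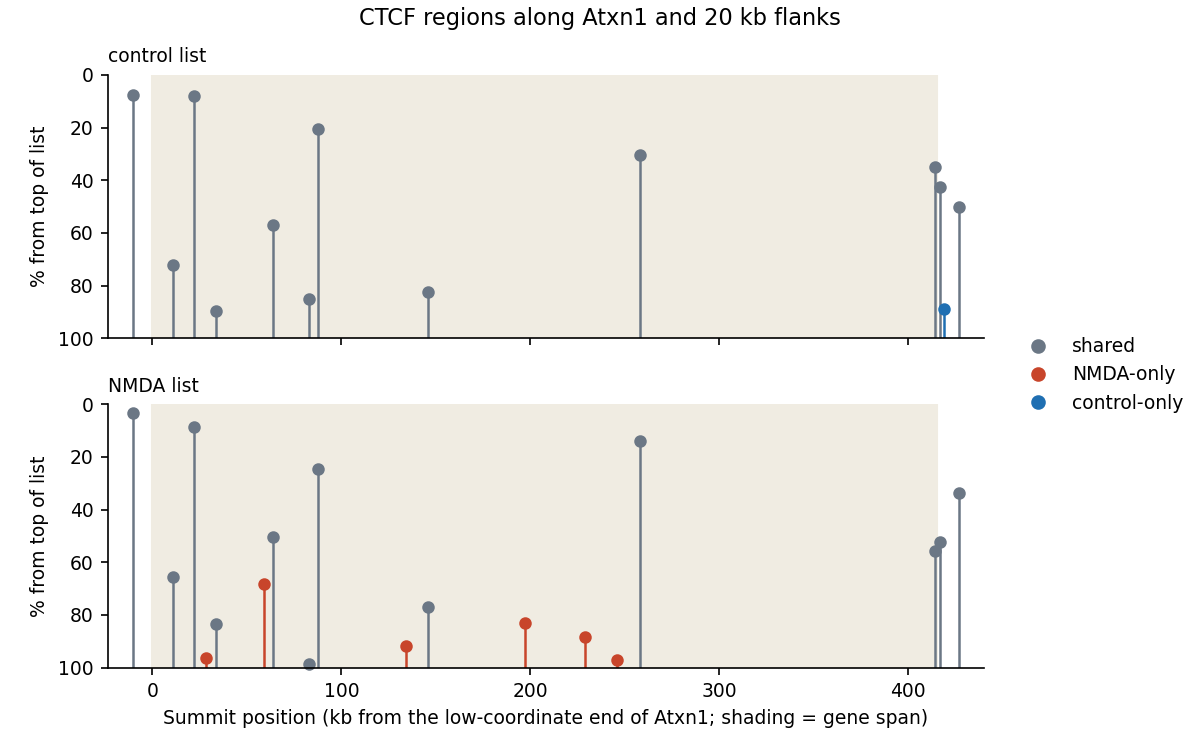
Position of each CTCF summit along Atxn1 (x axis, kb from the low-coordinate end, gene span shaded) against its place in its own list (y axis, percent of regions from the top, strongest at the top), for the control list above and the NMDA list below. All 6 NMDA-only regions lie between 28.3 and 246 kb and in the lower part of the list, while the strongest regions have a counterpart in the other panel.

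The strength of a region is the authors' −log10 p over both replicates, and only its place within its own list is used, as the percent of regions counted from the strongest. The strongest NMDA-only region of Atxn1 lay 59.1 kb from the low end (chromosome 13, 45608479 to 45609184), with a −log10 p of 50.6, at 68.3% from the top of the list. The next lay at 197 kb (45746257 to 45746856) with 32.3, at 83.2%. The third lay at 229 kb (45778536 to 45779298) with 27.8, at 88.4%. All of these were thus in the weaker part of the NMDA list, whose median was 90.9. The control list had a median of 166, so values of the lists are on different scales. The region at 134 kb (45683746 to 45684545) had 25.3 and that at 28.3 kb (45577775 to 45578304) had 21.8. The weakest, at 246 kb (45795727 to 45796356), had 21.2 and stood at 97.0% from the top. Their widths ran from 530 to 800 bp, with a median of 668 bp, against 742 bp over all NMDA-only regions and 1182 bp over the NMDA list.

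The NMDA-only regions of Atxn1 lay kilobases away from any control region. The closest control region was 3.74 kb from the one at 59.1 kb and 4.14 kb from the one at 28.3 kb, and the other 4 had gaps from 9.77 to 49.8 kb. The widest gap belonged to the region at 197 kb, in the middle of a stretch where the control list has nothing between 146 and 258 kb. In that stretch the NMDA list had 3 regions, at 197, 229 and 246 kb, which are NMDA-only by definition because the control list has nothing there. In the whole NMDA list, 40.8% of the 10397 regions with a −log10 p from 21.2 to 50.6 were NMDA-only. That range is the lowest and highest value of the 6 Atxn1 regions themselves, so all 6 fell in it by construction, beside 2 shared regions of Atxn1, and the share at Atxn1 cannot be read against the list. In the same range the 5 other members had 8 regions, of which 5 were NMDA-only.

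Shared regions made up the strong part of Atxn1. The region at 22.1 kb (45571106 to 45573632 in the control list) had a −log10 p of 557 in the control and 357 in the NMDA list, at 7.92% and 8.65% from the top. It was also the widest of Atxn1 in both lists, at 2527 and 2543 bp. Before the low end, a region inside the neighbouring gene Gmpr, which encodes a guanosine monophosphate reductase, stood at 7.5% and 3.29%. The region at 87.7 kb stood at 20.6% and 24.5%, and that at 258 kb (45806130 to 45808539) at 30.2% and 14.1%. The regions at 22.1, 87.7 and 258 kb were the 3 strongest inside the gene in both lists. Weak shared regions lay among them: the region at 82.6 kb had a −log10 p of 60.0 in the control list and of 19.5 in the NMDA list, where it stood at 98.8%, below each of the 6 NMDA-only regions. The shared regions at 11, 33.5, 63.8 and 146 kb had from 51.9 to 136 in the control list and from 32.0 to 89.3 in the NMDA list.

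At the high end of Atxn1 regions lay close together. One was centred 1077 bp inside the end in the control list (45962979 to 45964669) and had a −log10 p of 242 there and 75.1 in the NMDA list. The next lay just outside, near the long noncoding RNA gene 5033430I15Rik (45965082 to 45967158), with 200 and 84.0. The only control-only region of the window followed, 4185 bp outside the end (45968912 to 45969454), with a −log10 p of 53.0 at 88.9% of the control list and a gap of 1506 bp to the nearest NMDA region. The last region of the window, 12126 bp outside, had 165 and 151. The region near the noncoding RNA gene measured 2077 bp in control and 821 bp with NMDA, the narrower interval lying in the outer part of the wider one and beyond it.

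Places in the lists were compared over the 29350 shared regions that pair one to one, so that both rankings have the same length. The pair just inside the high end of Atxn1 stood at 38.1% from the top in control and 65.6% in NMDA, a difference of 27.5 points, and 98.3% of all pairs differed by no more than that. Over all pairs the middle 90% of differences ran from −17.2 to 18.6 points. The pair near 5033430I15Rik differed by 15.4 points, within that range. In the other direction, the pair at 258 kb stood at 32.7% in control and 16.1% in NMDA, and the pair 12126 bp outside the high end at 54.7% and 39.4%. Of the 12 pairs at Atxn1, 7 stood nearer to the top in the NMDA list and 5 in the control list, and 11 lay in the middle 90%. Their median difference, NMDA minus control, was −1.26 points, and that of all pairs was −0.291 points. The depth of the libraries is unknown, and a difference in place between 1 list and another has no replicate error.

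**Figure D2:**
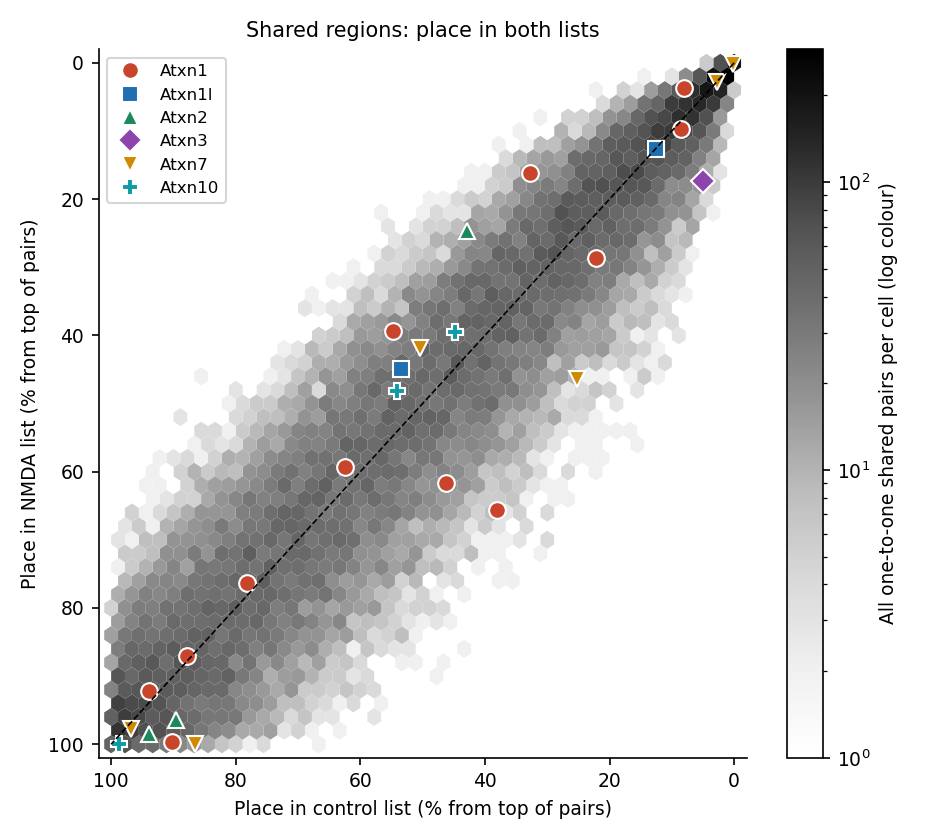
Place of each shared region among the 29350 one-to-one pairs in the control list (x axis) and in the NMDA list (y axis), in percent from the top with the strongest at the upper right, with all pairs as grey hexagons (log colour) and the 27 pairs of the ataxin genes as symbols. The dashed line marks equal places, and 24 of the 27 pairs lie within the middle 90% of differences.

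Atxn1l, a short gene on chromosome 8 (109726451 to 109737794, minus strand), had a shared region at its promoter and no list-only region. The control region (109736991 to 109738407) had a −log10 p of 170 and its summit lay 137 bp before the start site. The NMDA region (109737569 to 109738738) had 131, with its summit 179 bp before the start. These summits, 42 bp apart, are the ends of the capitals printed above. In places among the pairs, it stood at 53.5% in control and 45.0% in NMDA, a difference of −8.53 points. The other region of the window lay inside Zfp821, a zinc finger gene, at 11.7% and 11.1% of the lists, and its summits in the 2 replicates of the NMDA list were 887 bp apart.

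Atxn2, on chromosome 5 (121711609 to 121814950, plus strand), had regions of all 3 classes, and its strongest lay at the 3′ end. Downstream of the start site, a weak shared region had its summit at 1663 bp in control (121712532 to 121713846) and 1646 bp in NMDA, with a −log10 p of 51.7 and 22.9. An NMDA-only region lay just beyond it (121714543 to 121715340), with 28.0 and a gap of 696 bp to the control region. A further NMDA-only region followed at 9.42 kb from the start (121720781 to 121721223) with 25.7, and the third at 96.5 kb (121807864 to 121808370) with 23.5. All of them stood in the weakest part of the NMDA list, from 88.2% to 94.1% from the top. Between them, at 71.1 kb, lay a control-only region (121782324 to 121783272) with 77.8, at 76.2% of the control list and 24591 bp from the nearest NMDA region. The strongest region of the gene lay 321 bp outside its 3′ end and within 1 kb of an end of Sh2b3, which encodes an adaptor protein of cytokine signalling. It had a −log10 p of 216 in the control list (121814449 to 121816159) and 221 in the NMDA list. Among the pairs it stood at 42.8% and 24.7%, a difference of −18.1 points that lies outside the middle 90%. Another weak shared region lay inside Sh2b3, with 61.3 and 26.1.

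Atxn3, on chromosome 12 (101918901 to 101959121, minus strand), had a single region, the one over its promoter. It was the strongest region within 1 kb of an end of any member. In the control list (101957686 to 101959228) it had a −log10 p of 723, which was rank 1561 or 4.62% from the top. In the NMDA list (101957693 to 101958829) it had 272, which was rank 5460 or 15.1%. Its place among the pairs moved from 4.92% to 17.3%, and 77.1% of all pairs differed by no more than these 12.4 points. It was 1543 bp wide in control and 1137 bp in NMDA. Both summits lay before the start site, at 131 and 165 bp, and the replicate summits of the NMDA list were 3 bp apart. No region of either list lay elsewhere in the gene or its flanks.

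Atxn7, on chromosome 14 (13961283 to 14107316, plus strand), had 6 regions in each list, and all were shared. The strongest region of all member windows lay at an end of the next gene, Psmd6, which encodes a proteasome subunit. It had a −log10 p of 1824 in the control list (14120201 to 14121867, rank 53) and 1023 in the NMDA list (rank 74). Inside Atxn7 the strongest region lay 137 kb from the low end (14098141 to 14099742) with 944 and 569, at 2.55% and 2.48% from the top. The summits of each of these pairs were 1 bp apart. A weaker region at 93.3 kb (14054169 to 14055208) had 182 and 142 and was 1040 bp wide in control and 1856 bp in NMDA. At the start site given by RefSeq, which lies inside the gene span, the control region (14012066 to 14013464) covered the promoter window with its summit 683 bp downstream. The NMDA region (14012959 to 14013486) did not reach the window. That region had 68.4 in control and 18.9 in NMDA, where it stood at 99.5% and was 528 bp wide, against 1399 bp in control. A weak region 333 bp outside the low end, with its summit inside Thoc7, a gene for a subunit of the mRNA export complex THO, had 44.9 and 24.0. A second region inside Thoc7 had 327 and 126, and its places among the pairs of 25.2% and 46.4% differed by 21.2 points, outside the middle 90%.

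Atxn10, on chromosome 15 (85336255 to 85463837, plus strand), had 1 region inside the gene. It lay 52.6 kb from the start (85388268 to 85389465) and had a −log10 p of 207 in the control and 151 in the NMDA list, with summits 1 bp apart. Among the pairs it stood at 44.8% from the top in control and 39.5% in NMDA. Its NMDA value was made up of 26.3 in one replicate column and 124 in the other. Neither list had a region at its promoter, where the nearest control summit was 20434 bp and the nearest NMDA summit 7526 bp upstream. That NMDA summit belonged to an NMDA-only region (85328547 to 85329189) with 26.1. Beyond the 3′ end lay shared regions with 167 and 121 (85476926 to 85478200 in control) and with 39.1 and 18.7. The former stood at 54.1% of the pairs in control and 48.1% in NMDA, the latter at 98.8% and 99.9%. The second NMDA-only region (85475787 to 85476451) had 24.8 and was 474 bp from a control region, the narrowest gap among the 11 NMDA-only regions. Both NMDA-only regions of Atxn10 were thus outside the gene, whereas the 9 of Atxn1 and Atxn2 lay inside.

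**Figure D3:**
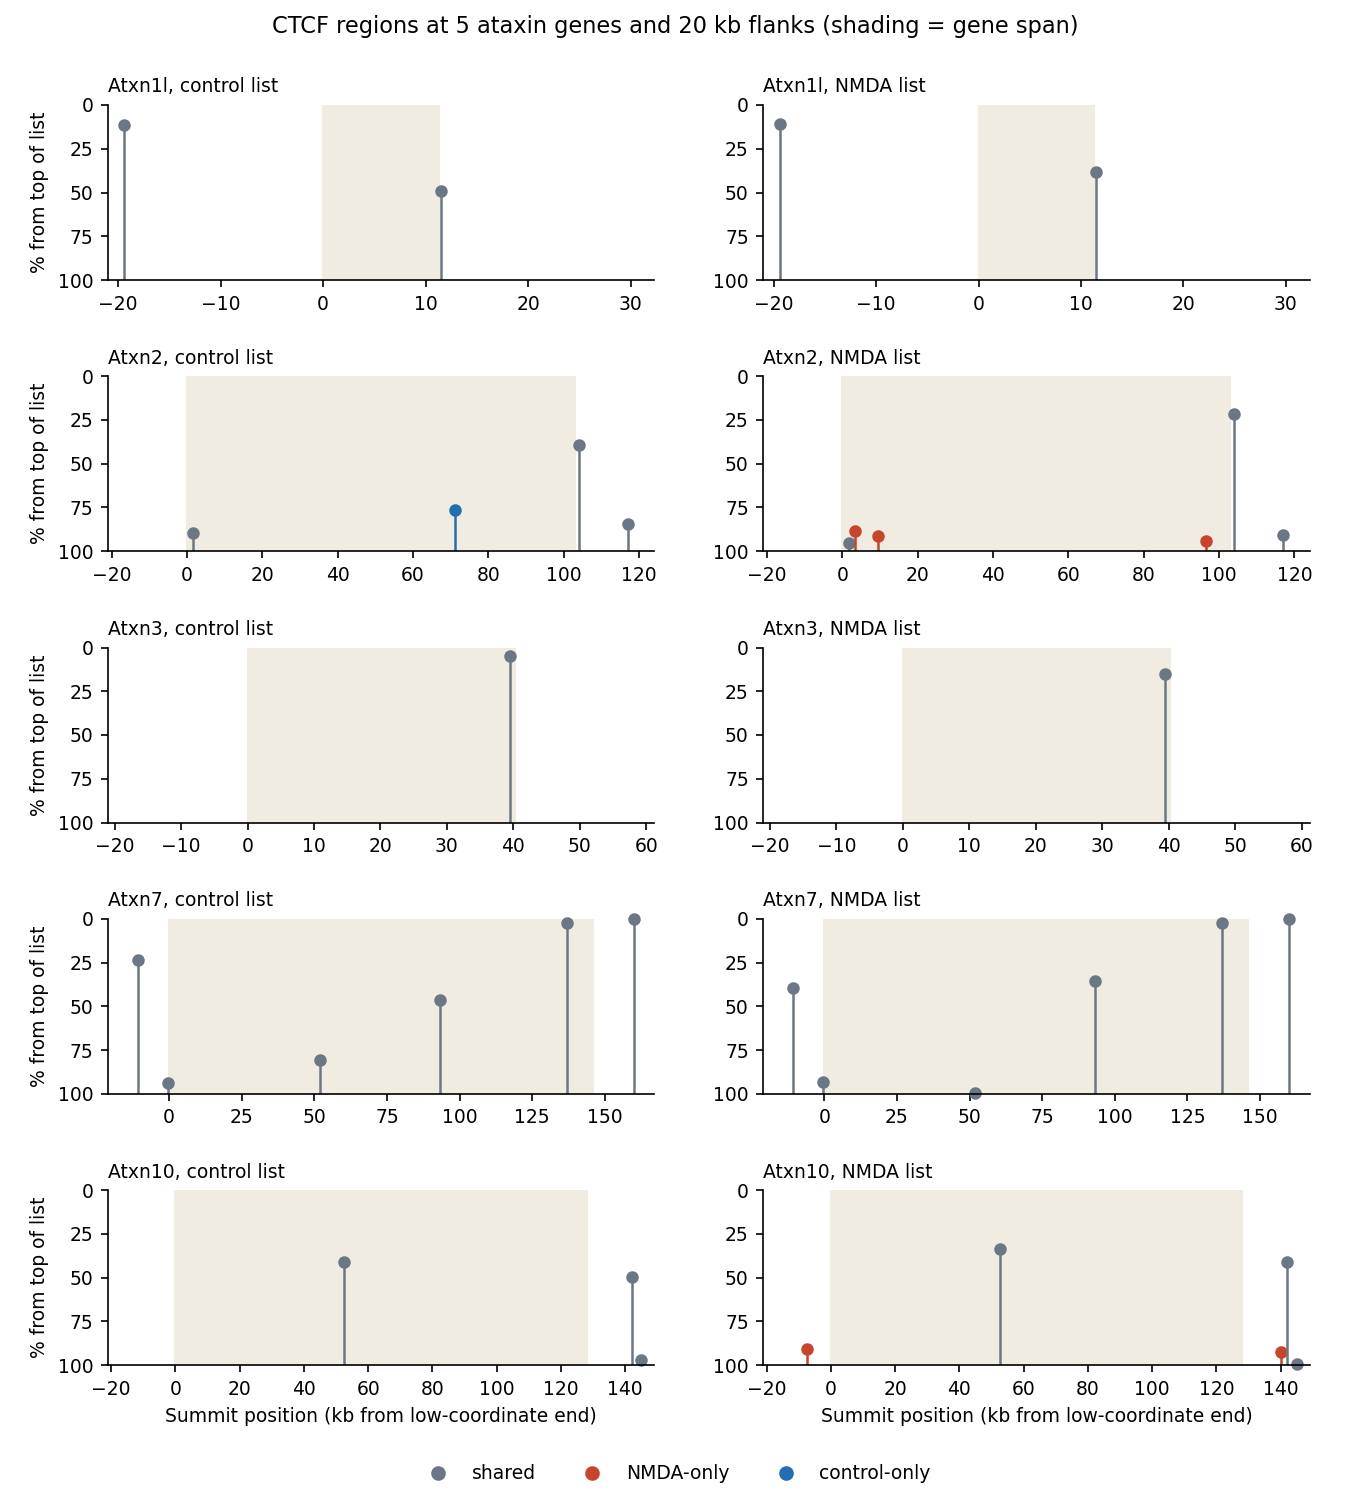
CTCF summits at Atxn1l, Atxn2, Atxn3, Atxn7 and Atxn10 (rows), drawn as position from the low-coordinate end in kb (x axis, gene span shaded) against place in the list in percent from the top (y axis), for the control list on the left and the NMDA list on the right. List-only regions (coloured) occur at Atxn2 and Atxn10 and stand low in their list, and the tallest stems at Atxn3 and Atxn7 are present on both sides.

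The NMDA list gives a −log10 p for each replicate, and the columns sum to the value used above. The sources do not tie a column to a replicate, and first and second refer to their order. In the second column the median over all regions was higher, 56.1 against 32.1, and 74.8% of all NMDA-only regions had the higher value there. At Atxn1 only 2 of the 6 NMDA-only regions did. The region at 59.1 kb had 16.5 in the first column and 34.0 in the second, and that at 28.3 kb had 8.91 and 12.9. The other 4 had from 11 to 16.5 in the first column and from 10.2 to 15.8 in the second, and the second was lower in each of them. All 5 NMDA-only regions of Atxn2 and Atxn10 were higher in the second column, with 7.96 to 12.1 in the first and 14 to 17.2 in the second. Over the 11 the first column spanned 7.96 to 16.5 and the second 10.2 to 34.0, and the lowest values of all NMDA regions were 7.41 and 8.84.

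The position of the summit in each replicate was not used to choose the genes. In the 6 NMDA-only regions of Atxn1 the replicate summits were 7 to 53 bp apart, with a median of 41.5 bp. In all 5616 NMDA-only regions the median was 46.0 bp, with quartiles of 20.0 and 97.0 bp, and 76.1% were within 100 bp. All 11 NMDA-only regions of the members were within 100 bp, as were 20 of their 27 shared regions (74.1%, against 79.2% of all shared regions). Between the lists, the summits of the 27 shared pairs lay 1 to 128 bp apart with a median of 13 bp, and 17 bp was the median over all pairs. The widest displacement, 128 bp, was again that of the region just inside the high end of Atxn1. The width in the NMDA list over that in control had a median ratio of 0.950 in the 27 member pairs, with a range of 0.377 to 1.78. Over all pairs the median ratio was 1.08 and the middle 90% ran from 0.660 to 1.74. The difference between these medians was not tested.

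**Figure D4:**
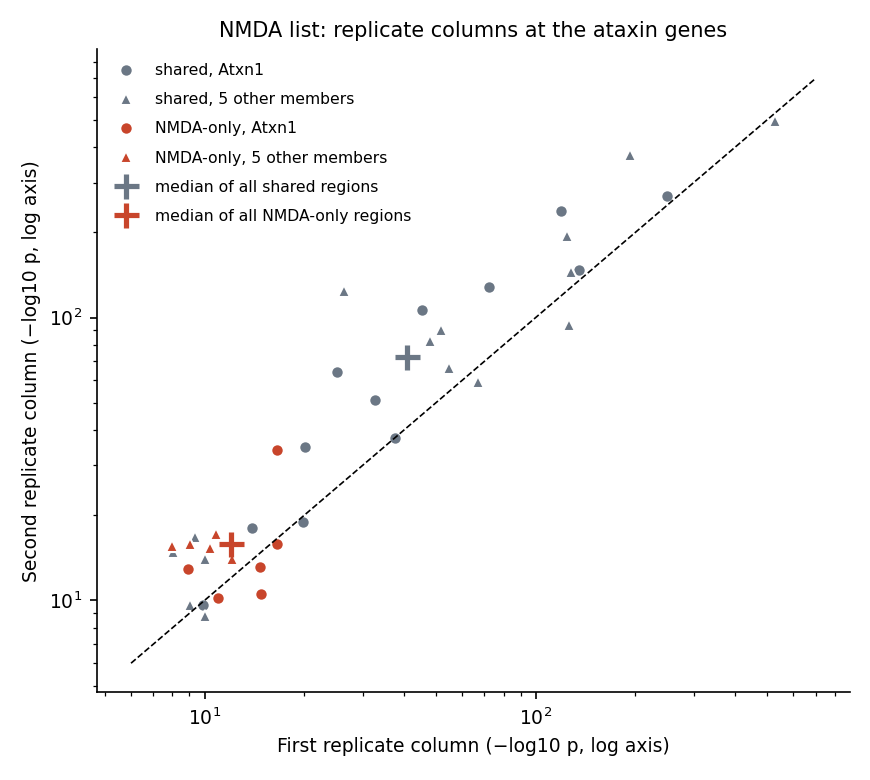
−log10 p in the first (x axis) and second (y axis) replicate column of the NMDA list, both on log axes, for the 38 NMDA regions of the ataxin genes (circles for Atxn1, triangles for the 5 other members, red for NMDA-only), with crosses at the medians of all shared and all NMDA-only regions and a dashed line of equal values. The NMDA-only regions gather at the low end of both columns, and 4 of the 6 of Atxn1 lie below the line.

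Atxn1 was also set beside genes of its own length. Among all 21887 protein-coding genes, 8 had 6 or more NMDA-only regions in their window and Atxn1 was among them. Of the 850 other genes with a span from 0.5 to 2 times that of Atxn1, 3 reached 6 or more, and the median was 0. The same genes had a median of 4.00 shared regions, and 21 of them had at least the 12 of Atxn1, so that few genes of its length had as many shared regions either. Per 100 kb, Atxn1 had 1.32 NMDA-only regions and ranked 3827th, since a single region in the window of a short gene gives a high density. Atxn2 had 2.09 per 100 kb and Atxn10 1.19. The 5 genes of like span with the nearest counts of shared, NMDA-only and control-only regions, by Euclidean distance over these 3 counts, were Igsf21 (11, 5 and 0, distance 1.73), Mtus2 (11, 4 and 0), Ksr2 (13, 4 and 0), Tmem132b (10, 4 and 1) and Fry (15, 6 and 1), against 12, 6 and 1 at Atxn1. These ranks and counts describe the measure by which Atxn1 was picked.

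**Figure D5:**
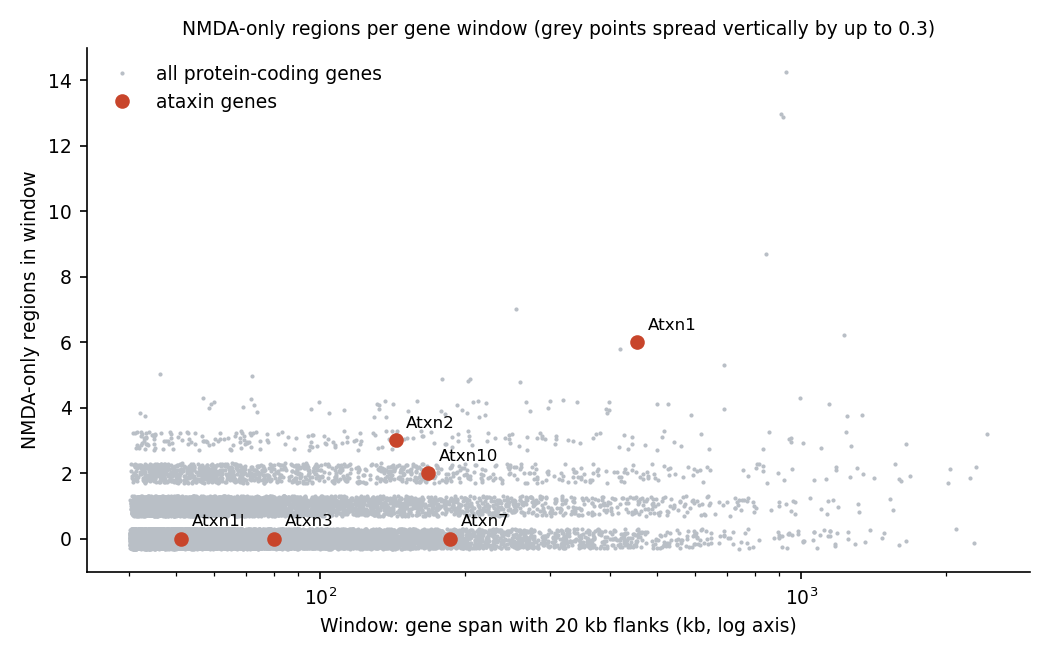
Number of NMDA-only regions (y axis) against the length of the window, gene span plus 20 kb flanks in kb on a log axis, for all 21887 protein-coding genes (grey, spread vertically so that points can be seen) and the ataxin genes (red). Atxn1, with 6, is the highest member, and Atxn1l, Atxn3 and Atxn7 are at 0.

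Genes tied to the ataxins by name, complex or disease were counted in the same way, in 5 lists with 55 genes. Of these, 47 had a shared, 19 an NMDA-only and 14 a control-only region, and none had as many NMDA-only regions as Atxn1. Over all protein-coding genes the shares were 71.8% with a shared, 26.7% with an NMDA-only and 16.3% with a control-only region. Their median span was 27.6 kb, against 115 kb for the members and 17.2 kb for all genes. Among the 5 relatives with ataxin names, 3 had an NMDA-only region, the strongest beside Atxn2l, the paralogue of Atxn2 (chromosome 7, 126486688 to 126487737, −log10 p 64.8). Atxn7l3, which encodes a SAGA deubiquitinase subunit, had 1 NMDA-only and 3 control-only regions in its window. Of the 5 other genes with disease-linked glutamine repeats, 2 had an NMDA-only region. Cacna1a, which encodes a calcium channel pore subunit, had 4 beside 14 shared regions, the highest count of the 55 genes, with the strongest at 37.1 (chromosome 8, 84414486 to 84415994). Htt, the huntingtin gene, had a control-only region (chromosome 5, 34805860 to 34806905, 61.5) and no NMDA-only region. Of 7 genes for partners of ataxin-1, 4 had an NMDA-only region, the strongest beside Rbm17, which encodes a splicing factor (chromosome 2, 11566765 to 11568253, 87.4). Rora, a nuclear receptor gene of Purkinje cell development, had 2 and 13 shared regions. Of 11 SAGA genes, 6 had an NMDA-only and 1, Trrap, a control-only region, and the strongest NMDA-only region lay in Supt3 (chromosome 17, 45045800 to 45046471, 66.7), where the replicate columns gave 11 and 55.7. Of 27 other ataxia genes, 4 had an NMDA-only and 8 a control-only region. The strongest control-only region among them lay in Itpr1, the gene of an intracellular calcium release channel (chromosome 6, 108367189 to 108367934), with 87.8 at 72.2% of the control list.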

How the data were processed

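CTCF ChIP-seq of control and NMDA-stimulated neurons was used as 2 deposited region lists. The submitters' processing notes name MACS2, BWA, Trimmomatic, SAMtools and FastQC, and the builds mm10 and GRCm38.p6, and their settings are not stated. The lists carry the name of the irreproducible discovery rate, a method that compares region ranks between replicates. The deposited −log10 p-value ranked regions within a list. In the NMDA list it equals the sum of its replicate columns (36186 of 36186 regions, tolerance 0.001), and the control list has no such columns. The deposited score ran from 540 to 1000. Depth is unknown, and inputs were not used. Regions on assembled chromosomes were kept (33815 of 33820 control and 36186 of 36193 NMDA) and placed by summit with Python 3.11.15, pandas 2.3.3 and NumPy 2.4.6. Gene spans and promoters came from RefSeq tables of GRCm38.p6, and exons and introns were not used. The overlap step was checked on the 33815 control regions against a copy with some removed at random and the rest shifted slightly. The classes were recovered for 99.9% of removed and 100.0% of kept regions. Kept regions had unchanged widths and overlap themselves by design, so the check does not bear on the classes in the real lists. Members, lists and rules were chosen with earlier results of these data known. All members are named, neighbouring genes where a region lies in them or within 1 kb of an end, and of each list at most the 3 genes with the highest −log10 p of a list-only region, taken over both lists although their values are on different scales. The −log10 p range, one-to-one pairs, replicate summit distances, counts over genes of like span and 7 of the 8 motif forms were added after the data had been seen. Alternatives covered the definition of a shared region, list size, score, flanks, placement and replicate columns.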

Additional observations from a re-analysis of the deposited data

How the results depend on the processing

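Over other definitions the NMDA-only regions of the members numbered 8 to 13 instead of 11, except when a score of 830 or more was required in both lists. That setting gave 3 of 23 regions (13%, against 18% of the list), all at Atxn1, which had 6 as reported. Among them, the regions at 59.1 and 197 kb, with scores of 1000 and 920, were NMDA-only as reported. The other was the shared region at 33.5 kb, with a score of 927 in the NMDA list. It became NMDA-only because its control partner, with a score of 721, was dropped. Under each of the settings run other than the stricter score, the members' share stayed above that of the list. Atxn1 is part of that share and was picked for such regions, so nothing is read from it. With the NMDA list limited to as many of its strongest regions as the control list holds, there were 8, of which 4 at Atxn1. All 6 of Atxn1 stayed NMDA-only under a reciprocal overlap of 50%, under summits within 100 bp and with the other list extended by 500 bp. With gaps of 3.74 kb or more to any control region, they could not have changed class under these settings. The first 2 settings added 1 and 2 more. The extension removed 1 of the 2 at Atxn10. The control-only regions of the members, 2 as reported, became 4 under a reciprocal overlap of 50%, summits within 100 bp and 50 kb flanks, 6 with the limited NMDA list and 1 without flanks. Their share, below that of the control list as reported, was above it with the limited list (20.7% against 11.15%), at the stricter score (9.1% against 5.61%) and with 50 kb flanks (9.8% against 9.22%). At Atxn1 the single control-only region became 2, 3 and 2 under the reciprocal overlap, the summit definition and the limited list, and 0 at the stricter score and without flanks. Without flanks the members had 15 shared regions instead of 27. The median place of the Atxn1 NMDA-only regions was 90% from the top, 77.8% by the first replicate column alone and 91.7% by the second. Atxn1 ranked 6th by count and 3827th per 100 kb. Ranking by the seventh column was not run, since it holds −1 in every region. No paired analysis was possible because each condition is 1 list over both replicates, and for the same reason no class could be recomputed without a replicate. The place in the NMDA list could be taken from either replicate column alone, as given above. The lists hold no read counts, so depth sets no stated limit, and an absent region may be one just under the authors' threshold.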
